A study of Mus musculus with 12 samples.

Results

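Acot1 and Acot2 are neighbouring genes on mouse chromosome 12 that encode acyl-CoA thioesterases. Every interval of the H3K27ac table that names either gene was taken, which gave 9 intervals of 126464 in all, 5 for Acot1 and 4 for Acot2, and 2 gene symbols of 22264. H3K27ac, the acetylated histone H3 of active promoters and enhancers, was measured by ChIP-seq in wild-type 4T1 cells, an established mouse mammary carcinoma line, with human chromatin added as a spike-in. All cells were grown in the same serum-containing medium and treated for 48 h, with 2 libraries per group and 12 in all. The 6 groups were vehicle, acetate (5 mM), etomoxir (50 µM), etomoxir + acetate, SB204990 + etomoxir (50 µM each) and SB204990 + etomoxir + acetate, so SB204990 was never given alone. Acetate can be made into acetyl-CoA, etomoxir blocks the carnitine palmitoyltransferase that brings long-chain fatty acids into mitochondria, and SB204990 inhibits ATP citrate lyase, which makes cytosolic acetyl-CoA. Both genes were chosen by their H3K27ac values under etomoxir in these libraries, so all values with etomoxir against without it are a description and carry no test. A log2 fold change with etomoxir alone is the mean of the changes without and with acetate, and one with SB204990 is the same for SB204990 + etomoxir.

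Acyl-CoA thioesterases split an activated fatty acid, the acyl-CoA, into the free fatty acid and coenzyme A. The Acot1 enzyme works in the cytosol and the Acot2 enzyme in the mitochondrial matrix, where it frees fatty acids from long-chain acyl-CoA. Both are known as target genes of PPARα, a nuclear receptor that binds fatty acids and pairs with RXR on DNA, and both are induced by fasting in liver and heart.

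Values are spike-in-scaled reads, the read count of an interval multiplied by the scaling factor of its library. Reads in intervals ranged from 7179165 to 16676442 per library and the factors from 0.398 to 1. Libraries fell into set 1 and set 2 by a suffix in their names, whose meaning the labels do not give. Each set held 1 library with a factor of 1, so values are also given within sets. The set 2 library of SB204990 + etomoxir stood apart, with a mean correlation of 0.915 with the other libraries across intervals, compared with 0.949 to 0.958 for the rest. The epithelial markers Epcam, Cdh1, Krt8 and Krt14 carried intervals, with a summed level of 5104 to 12091 scaled reads per library, whereas Krt18 and Krt7 had none. Leukocyte marker genes summed to 307 to 916 scaled reads, endothelial genes to 466 to 1294 and the 1 hepatocyte gene with intervals, Apoa1, to 748 to 2289. With etomoxir alone, the median log2 fold change was 0.21 for the 4 epithelial genes, 0.18 for the 3 leukocyte genes, 0.10 for the 3 endothelial genes and 0.25 for Apoa1. The median over all genes was 0.29. None of these marker genes was called, where 0.298% of all genes were called higher. With SB204990 the medians were -0.18, -0.28 and -0.37 for the first 3 lists and -0.19 for Apoa1 beside -0.10 for all genes, with no call, but 2 of the 3 endothelial genes were called lower without the library that stood apart, where 5.07% of all genes were. Their part in the results was not tested. In these bulk samples, fewer cells with the mark and less of it per cell cannot be told apart.

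In the mm10 build (GRCm38, GENCODE M21) Acot2 spans chr12:83987861-83993873 and Acot1 chr12:84009490-84018371, both on the plus strand and 15616 bp apart. The longest Acot2 interval, chr12:83985118-83990825 (5708 bp), contains the start site and is called the Acot2 promoter interval here. A small interval lies over the end of the gene (chr12:83993414-83994215, Acot2 end). A pair of intergenic intervals follows, the shorter at chr12:83995363-83996360 (Acot2 intergenic) and the longer at chr12:83996578-84001260 (4683 bp, Acot2 downstream), which begins 2705 bp after the gene. Acot1 had no interval over its start site. Its interval closest to the start, chr12:84009536-84009741 (206 bp), lies in the gene just after it. Acot1 end (chr12:84017212-84017748) lies near the end of the gene, and Acot1 downstream (chr12:84018492-84022535, 4044 bp) begins 121 bp after it. Acot1 distal 1 (chr12:84022905-84023450) and Acot1 distal 2 (chr12:84023901-84024096) follow, the last of them over the pseudogene Gm47943. Only 4 of the 9 intervals, the Acot2 promoter, intergenic and downstream intervals and the Acot1 downstream interval, had a mean of at least 10 scaled reads and entered the fits.

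The genes are near copies of each other. Their coding sequences (1359 bases in Acot2 and 1257 in Acot1) were 95.6% identical over 1236 aligned bases, so reads within exons can be hard to place. Only 27.2% of the 60-base windows in the Acot1 interval next to the start were unique in the genome, compared with 89.2 to 100% in the other 8 intervals. Low reads there cannot be told apart from reads that could not be placed. The 250 bases before the start sites, by contrast, were 48.0% identical over 227 aligned bases. They are shown to make this difference visible (GRCm38.p6, RefSeq start sites, plus strand, 5′ to 3′), with the CCAAT box on either strand in capitals.
Acot2, chr12:83987611-83987860: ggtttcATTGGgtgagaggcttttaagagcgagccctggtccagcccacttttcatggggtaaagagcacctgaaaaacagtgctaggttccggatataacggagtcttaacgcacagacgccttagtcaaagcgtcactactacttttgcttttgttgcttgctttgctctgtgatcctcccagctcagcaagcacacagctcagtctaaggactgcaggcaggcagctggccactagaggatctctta
Acot1, chr12:84009252-84009501: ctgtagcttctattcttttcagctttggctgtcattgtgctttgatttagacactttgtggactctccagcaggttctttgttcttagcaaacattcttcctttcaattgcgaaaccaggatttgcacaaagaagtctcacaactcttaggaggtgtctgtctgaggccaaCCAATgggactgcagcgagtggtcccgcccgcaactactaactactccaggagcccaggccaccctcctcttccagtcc
CCAAT was found once in each, 244 bases before the start on the reverse strand in Acot2 and 79 bases before it on the forward strand in Acot1, and in 33.8% of 32851 RefSeq promoters searched on both strands. GGGCGG, the core letters bound by Sp1, was found once in the Acot1 sequence and not in that of Acot2 (32.7% of promoters).

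The downstream intervals of both genes share a segment. A stretch of 648 aligned bases was 95.7% identical between chr12:83998934-83999578 in the Acot2 interval, 5061 bp after the gene, and chr12:84020233-84020871 in the Acot1 interval, 1862 bp after the gene. A 167-base window of it is shown (GRCm38.p6, plus strand), because it holds in both copies the same 17 letters, in capitals, that match the extended direct repeat bound by PPAR with RXR (AACT, then NGGNCA, then A, then AGGTCA) at all but 1 of its 15 fixed letters.
Acot2 downstream, chr12:83999356-83999522: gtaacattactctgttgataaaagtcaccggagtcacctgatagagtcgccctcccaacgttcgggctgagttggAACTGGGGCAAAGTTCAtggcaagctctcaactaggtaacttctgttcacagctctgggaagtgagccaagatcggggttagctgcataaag
Acot1 downstream, chr12:84020650-84020816: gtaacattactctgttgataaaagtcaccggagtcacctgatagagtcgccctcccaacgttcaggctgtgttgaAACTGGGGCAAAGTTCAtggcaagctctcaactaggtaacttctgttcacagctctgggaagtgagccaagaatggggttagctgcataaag
The mismatch to the searched motif is G14T, counted from 1 at its 5′ end with the letter of the motif first. The 2 windows differ at 5 positions, G64A, A70T, G75A, T148A and C149T (Acot2 letter first, counted from 1 at the 5′ end of the window), all outside the capitals. Searched on both strands with at most 1 mismatch, the motif was found in 0.0903% of the 3322 intervals within 10% of the length of the Acot2 downstream interval and in 0.117% of the 3422 near that of the Acot1 downstream interval, which include these intervals themselves. None of the 32851 RefSeq promoters had it, but only the 250 bases before each start were searched. These are much shorter than the intervals, so the shares cannot be compared. This motif was chosen after the letters of the shared segment had been read, so the match is a description. The core repeat (AGGTCA, any base, AGGTCA), with at most 2 mismatches, was found at 2 places in the Acot2 promoter interval and in neither downstream interval, and 46.4 to 59.6% of intervals of such lengths hold it.

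At the Acot2 promoter interval, H3K27ac was 117 and 127 scaled reads with vehicle (set 1 and set 2) and 246 and 228 with etomoxir. With acetate it was 215 and 165, and with etomoxir + acetate 452 and 372. With SB204990 + etomoxir it was 202 in set 1 and 203 in set 2, and 305 and 408 when acetate was present too. The etomoxir libraries without acetate (202 to 246) lay above both vehicle libraries, and those with acetate (305 to 452) lay above both acetate libraries. Of all tested intervals 0.585% separated in this way in both strata, which is given as a description since these values chose the genes. Across strata they overlapped, since the acetate library of set 1 was higher than both SB204990 + etomoxir libraries. Same-set folds with etomoxir against without it ranged from 1.42 to 2.47, and the mean log2 fold change was 1.04 with etomoxir alone (1.07 in set 1 and 1.00 in set 2) and 0.81 with SB204990 (0.64 and 0.99).

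The Acot2 downstream interval differed more. It had 25.7 and 38.0 scaled reads with vehicle and 98.3 and 102.5 with etomoxir. It had 38.0 and 46.5 with acetate, and 188 and 182 with etomoxir + acetate. SB204990 + etomoxir gave 91.2 and 108, and SB204990 + etomoxir + acetate 171 and 184. All 8 libraries with etomoxir were above all 4 without it (at least 91.2 compared with at most 46.5), as was so of 0.0892% of the 63903 tested intervals. Same-set folds ranged from 2.70 to 4.94. The mean log2 fold change was 1.88 with etomoxir alone (2.09 in set 1 and 1.68 in set 2), the 2nd highest value of 63903 intervals, and 1.84 with SB204990 (1.97 and 1.72), the 3rd highest. Without the SB204990 + etomoxir library that stood apart the latter was 1.78. The median over all tested intervals was 0.33 and -0.07, respectively. Both comparisons share the vehicle and acetate libraries.

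The Acot1 downstream interval had 14.0 and 27.7 scaled reads with vehicle, 46.3 and 40.7 with etomoxir and 43.4 and 62.0 with SB204990 + etomoxir. With acetate these were 29.6 and 35.3, 97.0 and 95.0, and 63.4 and 77.2, in the same order. Here too the 8 libraries with etomoxir (40.7 to 97.0) did not overlap the 4 without it (14.0 to 35.3), so that it is also among the 0.0892%. Same-set folds ranged from 1.47 to 3.30, with a log2 fold change of 1.32 with etomoxir alone (1.67 in set 1 and 0.97 in set 2) and 1.22 with SB204990 (1.32 in set 1, and 1.09 over both sets without the library that stood apart).

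**Figure D1:**
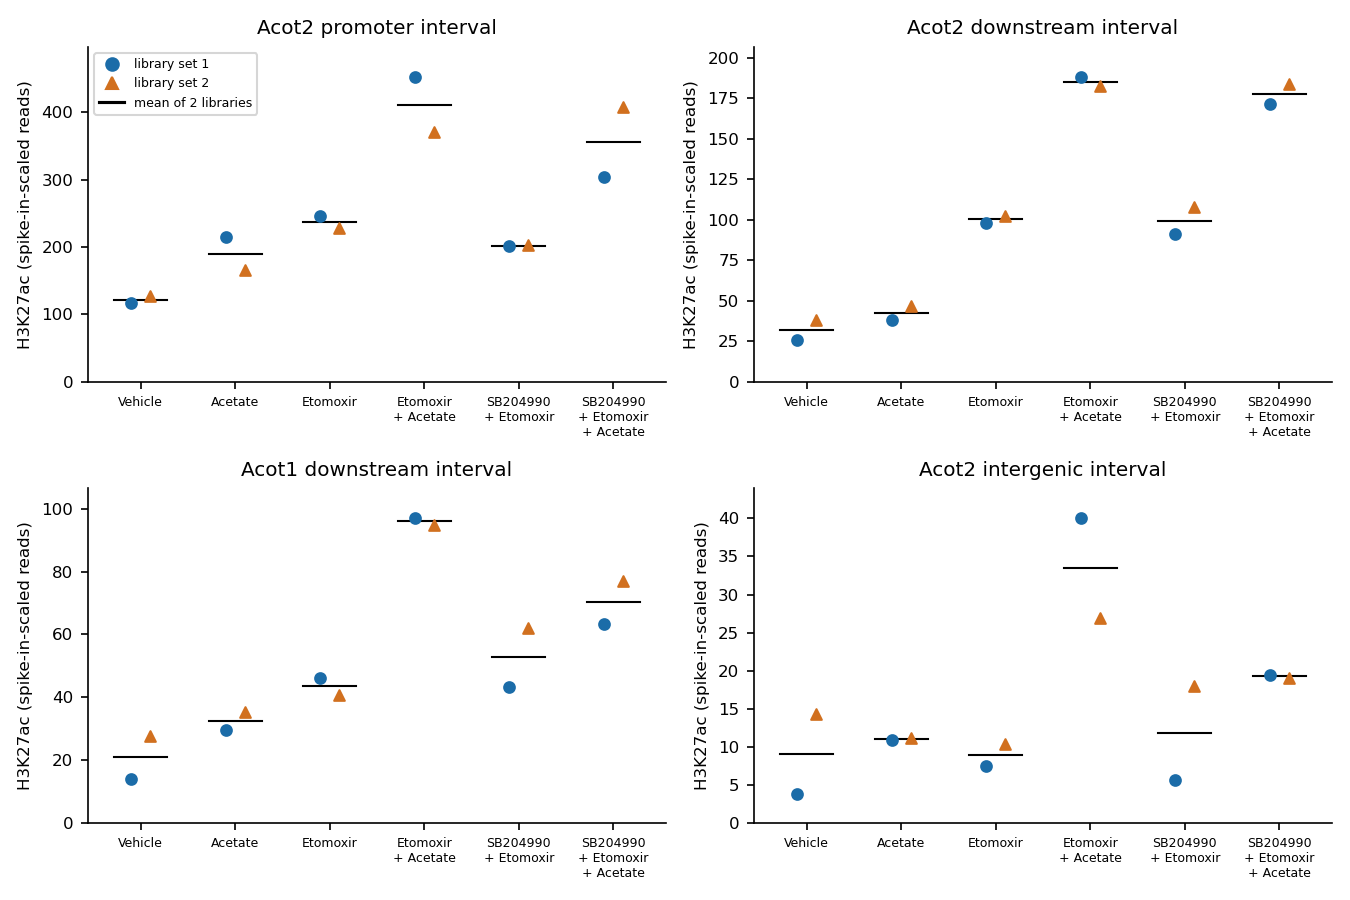
H3K27ac in spike-in-scaled reads (vertical axes, starting at 0) for each of the 12 libraries at the 4 intervals that entered the fits, by treatment. Circles are set 1, triangles set 2 and lines the mean of 2 libraries. At the downstream intervals of Acot2 and Acot1 the 8 etomoxir libraries lie above the 4 others, whereas the weak Acot2 intergenic interval overlaps.

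The remaining intervals were weak. Acot2 intergenic had 3.74 to 14.3 scaled reads in the 4 libraries without etomoxir and 5.58 to 40.0 in the 8 with it, and these overlapped. Its log2 fold change was 0.84 with etomoxir alone, but 1.31 in set 1 and 0.38 in set 2. It was 0.57 with SB204990, and 0.19 without the SB204990 + etomoxir library that stood apart. Acot2 end was higher with etomoxir in 7 of 8 same-set pairs, Acot1 end in 8, Acot1 distal 1 in 7 and Acot1 distal 2 in 5. The Acot1 interval next to the start was higher in 5 of 8 pairs and had between 1 and 8 reads in a library. These counts are a description. The 8 pairs reuse the 4 libraries without etomoxir, and the share of all intervals with such counts was not computed. Over all tested intervals the median log2 fold change was 0.33 with etomoxir alone and -0.07 with SB204990. The 5 intervals that did not enter the fits had 1 to 24 reads per library.

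Because the scaling factor of a library cancels in a ratio of its own intervals, the shape of the Acot2 signal can be read without the spike-in. Per library, the downstream interval had 0.220 (set 1) and 0.300 (set 2) times the reads of the promoter interval with vehicle, and 0.177 and 0.281 with acetate. With etomoxir the ratio was 0.400 and 0.449, and with etomoxir + acetate 0.416 and 0.491. With SB204990 + etomoxir it was 0.453 and 0.532, and with acetate added 0.563 and 0.450. All 8 etomoxir libraries (0.400 to 0.563) lay above the 4 others (0.177 to 0.300), so the downstream interval differed by more than the promoter interval did. This is a description, since the etomoxir values chose the genes. The share of other interval pairs whose ratio separates in this way was not computed. The downstream interval held 27.1 to 33.5% of the Acot2 reads with etomoxir and 14.3 to 20.6% without it. The ratio of the Acot1 to the Acot2 downstream interval overlapped, at 0.370 to 0.574 with etomoxir and 0.545 to 0.778 without it.

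**Figure D2:**
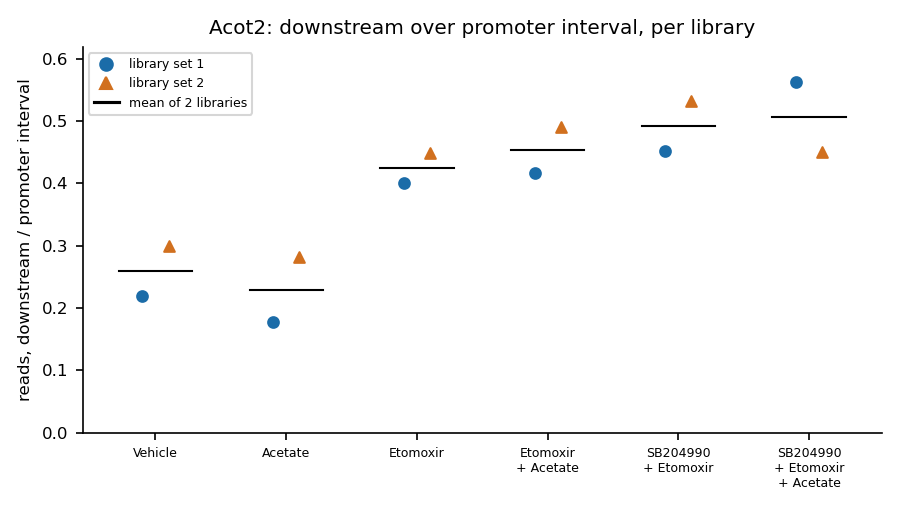
Reads in the Acot2 downstream interval divided by reads in the Acot2 promoter interval (vertical axis, a ratio without unit, starting at 0) in each of the 12 libraries, by treatment. The 8 libraries with etomoxir lie between 0.400 and 0.563 and the 4 without it between 0.177 and 0.300, which is a description without a share over other interval pairs.

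Summed per gene, Acot2 had 149 and 187 scaled reads with vehicle (set 1 and set 2), 267 and 226 with acetate, and 362 and 349 with etomoxir. It had 693 and 598 with etomoxir + acetate, 305 and 342 with SB204990 + etomoxir, and 511 and 626 with SB204990 + etomoxir + acetate. From high to low, the order of the group means was etomoxir + acetate (646 ± 67.1, SD, n = 2), SB204990 + etomoxir + acetate (569 ± 81.5), etomoxir (356 ± 9.60), SB204990 + etomoxir (324 ± 26.1), acetate (246 ± 29.1) and vehicle (168 ± 27.1). Only the first and the next group overlapped in their libraries.

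Acot1 had 21.03 and 38.0 scaled reads with vehicle, 42.9 and 55.1 with acetate, and 62.9 and 52.1 with etomoxir. It had 131 and 120.0 with etomoxir + acetate, 58.9 and 87.0 with SB204990 + etomoxir, and 91.2 and 98.9 with SB204990 + etomoxir + acetate. The order of the means was etomoxir + acetate (126 ± 7.78), SB204990 + etomoxir + acetate (95.0 ± 5.42), SB204990 + etomoxir (73.0 ± 19.8), etomoxir (57.5 ± 7.60), acetate (49.0 ± 8.68) and vehicle (29.5 ± 12.02). SB204990 + etomoxir overlapped with etomoxir, and etomoxir with acetate. The log2 fold change of the gene sum was 1.24 for Acot2 and 1.17 for Acot1 with etomoxir alone, the 10th and 16th highest of 19458 genes. It was 1.33 in set 1 and 1.15 in set 2 for Acot2, and 1.56 and 0.78 for Acot1. With SB204990 it was 1.08 and 1.13, and 1.03 and 0.99 without the library that stood apart. Acot2 had 3.93 to 7.07 times the scaled reads of Acot1 in a library. Per kb of their intervals and with vehicle, Acot2 had 13.8 ± 2.22 scaled reads and Acot1 5.34 ± 2.17 (SD, n = 2).

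In RPM, the share of the library's reads in intervals, which does not use the spike-in factor, Acot2 had 21.8 to 26.5 RPM in the 4 libraries without etomoxir and 44.4 to 59.5 in the 8 with it. Acot1 had 3.08 to 5.52 and 6.64 to 12.1 RPM. Neither gene overlapped on this scale, as was so of 1.59% of 19458 genes, whereas the Acot1 sum overlapped in scaled reads, where the highest acetate library (55.1) exceeded the lowest etomoxir library (52.1).

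Acetate was the first contrast that the choice of the genes did not use. The Acot2 promoter, Acot2 downstream and Acot1 downstream intervals rose with acetate, averaged over the 3 backgrounds (no inhibitor, etomoxir, SB204990 + etomoxir), in the limma test. The log2 fold change was 0.74 (SE 0.12, adjusted p = 4.41e-08) at the Acot2 promoter 0.71 (SE 0.16, adjusted p = 3.37e-05) at Acot2 downstream and 0.74 (SE 0.20, adjusted p = 0.000441) at Acot1 downstream. Acot2 intergenic is described without a test, since it reached the minimum mean of 10 through the acetate groups, with group means of 8.87 to 11.8 scaled reads without acetate and up to 33.4 with it. Its value was 1.05, and the sets differed (1.75 in set 1 and 0.35 in set 2). Of all 63903 intervals, 77.2% were called higher, and 0.00156% lower, with a median log2 fold change of 0.64, so the members moved with most intervals. The gene sums rose by 0.74 (SE 0.12) for Acot2 and 0.76 (SE 0.19) for Acot1 on the log2 scale (limma adjusted p = 2.14e-05 and 0.000989), where 88.2% of 19458 genes were called higher and the median was 0.63. In all 6 pairs of libraries from 1 set, acetate went with a higher sum, by a factor of 1.21 to 1.91 for Acot2 and of 1.14 to 2.30 for Acot1. The Acot2 intergenic interval was higher in 5 of the 6. Within sets the mean log2 difference was 0.84 and 0.64 for Acot2 and 0.89 and 0.63 for Acot1.

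The acetate rise was a rise in scaled reads. As a share of the reads in intervals, Acot2 with acetate was 0.928 to 1.22 times its counterpart without, and Acot1 0.724 to 1.40 times. With total-sum scaling the log2 fold change was 0.11 for Acot2 and 0.14 for Acot1, and neither was called (limma adjusted p = 0.516 and 0.721).

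SB204990 added to etomoxir, averaged over without and with acetate, gave no call at any of the 4 intervals or for either gene. Both arms of this contrast are etomoxir libraries, whose values chose the genes, so their place beside the median of all genes is no independent result. The log2 fold change was -0.16 (95% interval -0.45 to 0.13) for Acot2 and -0.04 (-0.51 to 0.43) for Acot1, with limma adjusted p = 0.330 and 0.881. For the same comparison, 45% of 19458 genes were called lower and 0.0206% higher, with a median of -0.40. That share was not stable, with 0 genes called lower under each of the 3 other scalings, 1 without an intensity trend, and 0 to 16558 when a library was left out, 0 in 5 of 12 such fits. At the intervals the value was -0.22 (-0.52 to 0.08) at the Acot2 promoter, -0.04 (-0.42 to 0.34) at Acot2 downstream, -0.27 (-0.99 to 0.45) at Acot2 intergenic and -0.10 (-0.57 to 0.37) at Acot1 downstream, where 19.2% of all intervals were called lower, 0.0704% were called higher and the median was -0.41. The gene sums differed between the sets, at -0.34 in set 1 and 0.02 in set 2 for Acot2, and at -0.30 and 0.23 for Acot1. Without the SB204990 + etomoxir library that stood apart the values were -0.20 and -0.18, again not called. As a share of reads, the Acot2 sum was 1.07 to 1.26 times that with etomoxir in the 4 same-set pairs and the Acot1 sum 0.944 to 1.83 times, higher in 3 of 4, whereas in scaled reads 1 of 4 pairs was higher for either gene.

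Whether acetate acted differently with the inhibitors than without was asked by the interaction, the mean acetate change under etomoxir and under SB204990 + etomoxir minus that without inhibitor. It was 0.28 (95% interval -0.23 to 0.78) for Acot2 and 0.00 (-0.81 to 0.81) for Acot1 on the log2 scale, with limma adjusted p = 0.858 and 0.999. No feature was called among 63903 intervals or 19458 genes by limma or by edgeR (0% in either direction), and 440 intervals and 8 genes had an unadjusted limma p under 0.05. The intervals of these differences are wide, so an acetate response of the same size with and without inhibitors is not shown either.

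**Figure D3:**
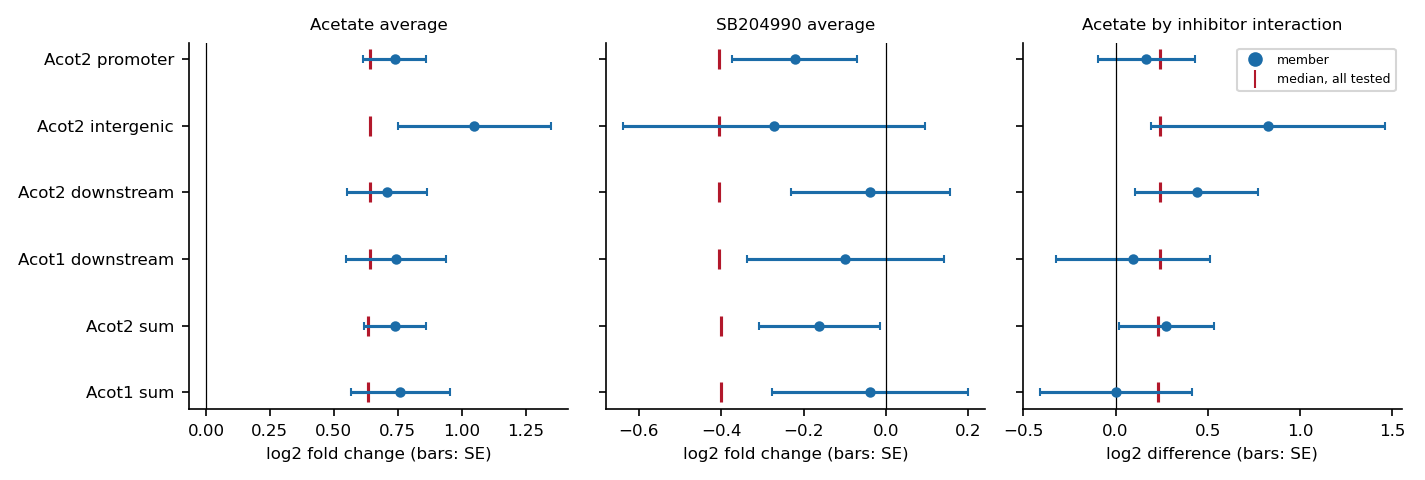
Log2 fold change (horizontal axes, bars are standard errors from limma) of the 4 intervals that entered the fits and both gene sums for acetate, SB204990 and their interaction contrast, with the median of all tested features as a red tick. The acetate value of Acot2 intergenic (1.05) is a description without a test, since this interval passed the filter through the acetate groups. Its sets differed (1.75 in set 1 and 0.35 in set 2). The other acetate values lie near the median of 0.64 for intervals and 0.63 for genes. All error bars of the SB204990 values except that of the Acot2 promoter and Acot2 sum cross 0.

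The surrounding intervals are given for scale, since the members were chosen by their etomoxir values and the neighbours were not, and the difference between them was not tested. Within 250 kb of either start site lay 46 other intervals, of which 18 were strong enough to enter the fits. Their log2 fold change with etomoxir alone ranged from 0.13 to 0.62 (median 0.33), compared with 0.84 to 1.88 for the 4 member intervals. With SB204990 it ranged from -0.40 to 0.51 (median 0.01), compared with 0.57 to 1.84. The lowest member values were those of Acot2 intergenic, which was at 0.38 in set 2 with etomoxir alone. With SB204990 it was at 0.19 without the library that stood apart and at 0.15 without the vehicle library of set 1, within the range of the neighbours. The other 3 member intervals were above all 18 neighbours in both comparisons. The closest tested intervals were that of Gm26571, 36.2 kb before the Acot2 start, at 0.30 and -0.15, and that of Acot6, 113 kb after it, at 0.31 and 0.15. Acot4, another thioesterase gene of this cluster, had 1 interval with a mean of 2.23 scaled reads and was not tested, and Acot3 and Acot5 had none.

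**Figure D4:**
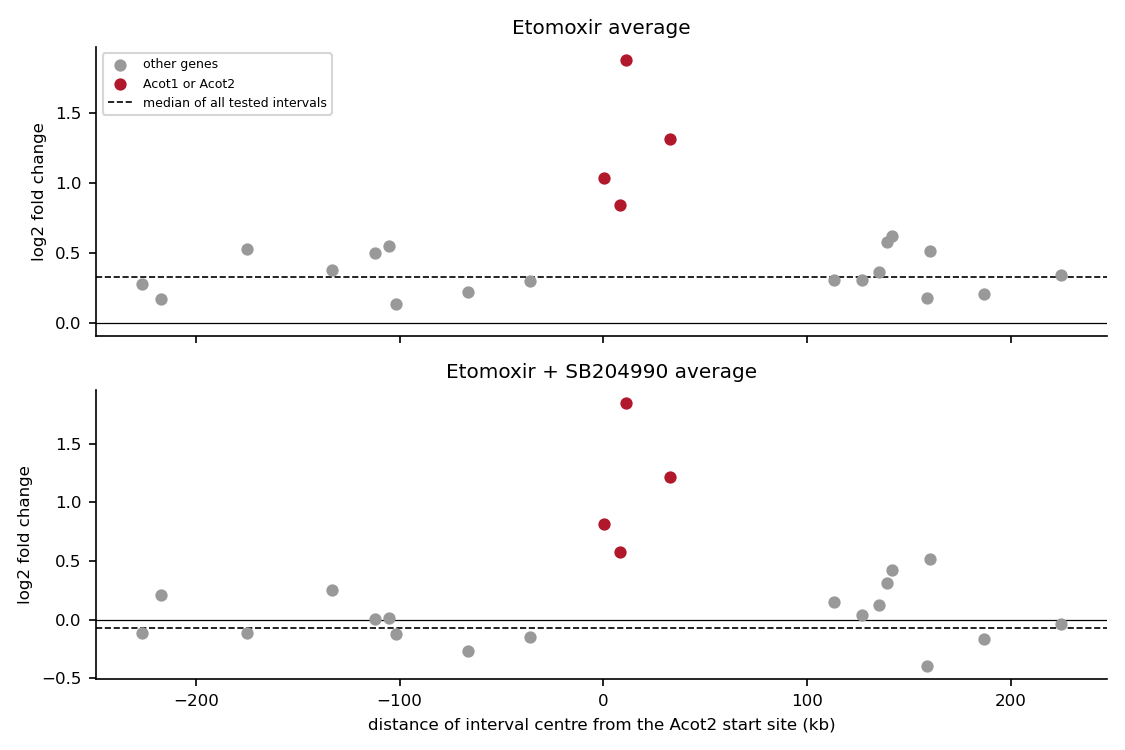
Log2 fold change (vertical axes) of all tested intervals within 250 kb of the Acot1 and Acot2 start sites, against the distance of the interval centre from the Acot2 start in kb, with etomoxir alone (top) and with SB204990 (bottom). Red points are the 4 Acot1 and Acot2 intervals, grey points the 18 others and the dashed line the median of all tested intervals. The red points are the 4 highest in both panels, the lowest of them, Acot2 intergenic, at 0.84 and 0.57.

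The wider pathway was read from gene lists. None of the 10 other acyl-CoA thioesterase genes tested was called with etomoxir alone (limma, all genes tested together), where 0.298% of all genes were called higher. Their values ranged from -0.58 (Acot10) to 0.44 (Acot12), with a median of 0.31 beside 0.29 for all genes. Acot7, Acot8, Acot9 and Acot13 had 0.30, 0.31, 0.34 and 0.29. No thioesterase gene was called with SB204990 either, where 0.0719% of all genes were called higher and 0.0103% lower. The median was -0.11 beside -0.10. None of the 8 acyl-CoA synthetase genes, whose enzymes make the acyl-CoA that thioesterases split, and none of the 7 genes of PPARs and their partners was called in either comparison. At the shares given for all genes, lists this short are expected to hold no call. The absence of calls is therefore no result about these 3 lists. The counts of calls rest on the SB204990 + etomoxir libraries, which share in the estimate of the spread. Without the set 2 library, which stood apart, 4 of the 10 thioesterase genes were called higher with etomoxir alone, where 33.1% of all genes were, and without that of set 1, 3 of 10, where 32% were. When either one of these libraries was left out, 5 of the 8 synthetase genes and 1 of the 7 PPAR and partner genes were called higher with etomoxir alone. With SB204990, 1 synthetase gene was called lower without the set 2 library, where 5.07% of all genes were. Ppara itself, which encodes PPARα, had 4.83 to 24 scaled reads in a library.

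Of the 23 PPAR target and fatty acid oxidation genes tested and reported here, 6 rose with etomoxir alone and none fell, where 0.298% of 19458 genes were called higher. The list median was 0.47 beside 0.29 for all genes. The list was chosen with results of these libraries known, so no count over it, here or with SB204990, is independent evidence of its direction. The log2 fold changes were 1.54 for Pdk4, which restrains pyruvate oxidation, and 1.23 for the uncoupling protein gene Ucp3. They were 1.05 for Hilpda, an inhibitor of lipid droplet lipolysis, 0.93 for Cpt2, 0.90 for Cpt1a, which encodes the target of etomoxir, and 0.62 for the lipid droplet coat gene Plin2. The limma adjusted p ranged from 2.95e-07 (Pdk4) to 0.0162 (Plin2). The Plin2 call was kept in 5 of 12 fits that left out a library each and that of Cpt2 in 9, whereas the other 4 genes kept theirs in all 12. Without the set 2 library of SB204990 + etomoxir 20 of the 23 were called, beside 33.1% of all genes, and without that of set 1 also 20, beside 32%. With intervals within 10 kb of the start site alone, Cpt1a was at 0.52 and not called (limma adjusted p = 0.149). Plin2 was at 0.33 with median-of-ratios and 0.35 with total-sum scaling, not called in either (limma adjusted p = 0.391 and 0.0509). Without an intensity trend Cpt1a, Cpt2 and Plin2 were not called (limma adjusted p = 0.135, 0.0864 and 0.234). With SB204990, 3 of the 23 rose, Pdk4 (1.28), Ucp3 (1.06) and Hilpda (0.84), where 0.0719% of genes were called higher, and none fell (0.0103% of genes). The count was 6 without the set 1 library of SB204990 + etomoxir (4.28% of all genes), 5 without that of set 2 (0.161%) and 2 without the set 2 library of SB204990 + etomoxir + acetate (0.0257%). It was 6 with median-of-ratios and 8 with total-sum scaling, where 110 and 190 of all genes were called. Ucp3 lost its call without the set 2 library of SB204990 + etomoxir + acetate (limma adjusted p = 0.0684). Pdk4 was at 0.66 and not called with intervals within 10 kb of the start site (limma adjusted p = 0.628). Without an intensity trend none of the 3 was called, with limma adjusted p = 0.0602 for Pdk4, 0.148 for Ucp3 and 0.0867 for Hilpda.

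**Figure D5:**
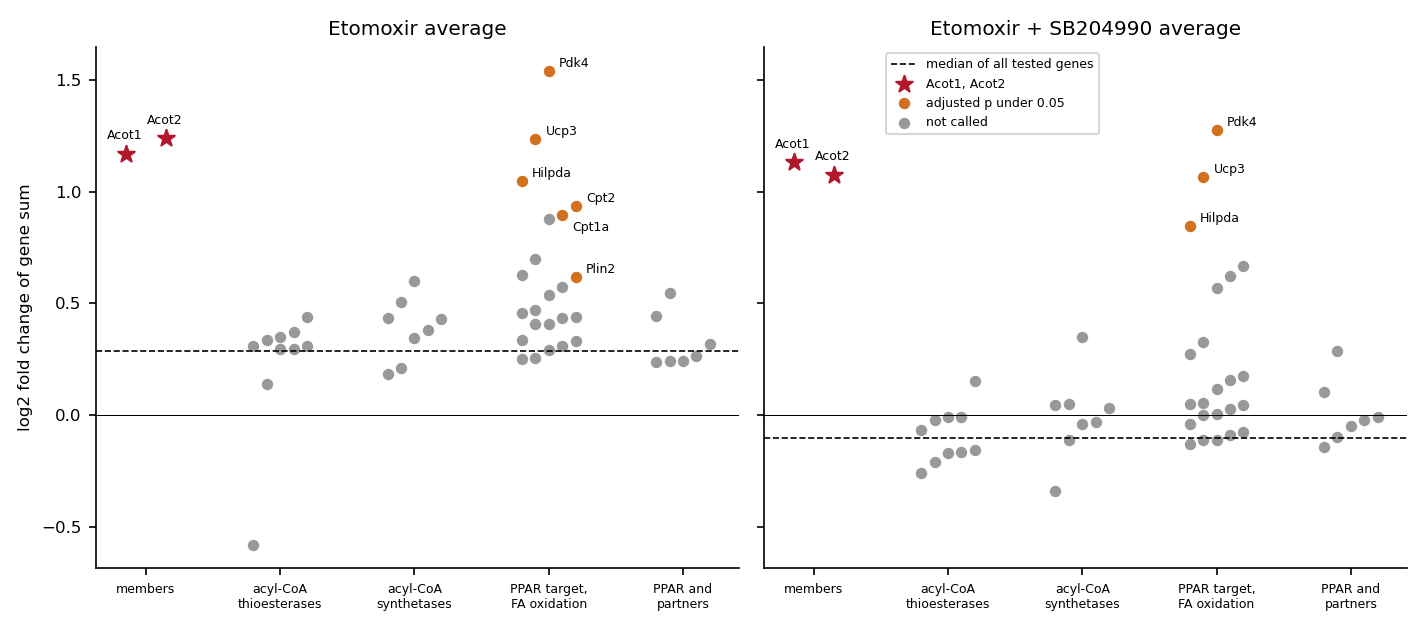
Log2 fold change of the gene sum (vertical axis) with etomoxir alone (left) and with SB204990 (right) for Acot1, Acot2 and each tested and reported gene of the 4 lipid gene lists. Orange points passed an adjusted p of 0.05 in limma and are named, the members are shown without a test, and the dashed line is the median of all 19458 tested genes (0.29 and -0.10). With all 12 libraries no gene of the thioesterase, synthetase and PPAR lists was called. Of all genes, 0.298% were called higher with etomoxir alone and 0.0719% with SB204990, so lists this short are expected to hold no call. The counts with etomoxir alone were not stable when a SB204990 + etomoxir library was left out.

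The genes with the most similar profile over the 12 libraries, after the median of all genes was taken out of each library, were found by the highest Pearson correlation among 15533 genes. For Acot2 these were Hsd17b11 (r = 0.988), which encodes a lipid droplet enzyme, Ppef1 (0.988), the muscle fructose bisphosphatase gene Fbp2 (0.986), Impa2 (0.985) and 4931413I07Rik (0.976). For Acot1, 4 are named, Gm27204 (0.966), Slit1 (0.956), Gm49390 (0.948) and Gm35394 (0.942). Acot1 ranked 63rd for Acot2 and Acot2 ranked 35th for Acot1, with r = 0.897. The 12 points are 6 treatments with 2 libraries each, so these correlations describe the profile and are not independent of the etomoxir values.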

How the data were processed

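H3K27ac ChIP-seq was performed on 12 libraries of 4T1 cells, and chromatin was cut with micrococcal nuclease and sonicated, and 7.5% human chromatin was added as a spike-in before the immunoprecipitation. Per the labels and methods, the authors aligned reads to a merged GRCh38 and mm10 genome with nf-core/chipseq (v1.2.2) and derived factors from the percentage of human reads. The deposited signal values are read counts per interval multiplied by these factors. In 2 libraries the factor was 1, so the deposited values are raw read counts. In the others 100% of the values were whole multiples (tolerance 0.01) of 1 read. All 12 value columns were used.

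The members and gene lists were chosen with earlier results of these data known. Scaled values were tested per interval (63903 with a mean of at least 10) and summed per gene symbol (19458) with limma 3.58.1 (R 4.3.3) on log2(value + 1), with an intensity trend, 6 group means over 12 libraries and Benjamini-Hochberg adjustment over all features. Named were all member intervals, all intervals within 250 kb, called list genes (up to 10 per list) and the 5 most similar genes with a mean of at least 50, and 1 gene of these is not reported here and was left out of its list. A pseudocount of 1 understates changes of low intervals. Limma was tested on simulated data, where 200 of 19372 genes changed by 4-fold with etomoxir were recovered at 100% with 14 false calls. This change is larger than those of the called list genes, and only genes with a mean of at least 50 were changed. The simulated data had the same fixed dispersion for all genes, no global shift and no library that stood apart. They therefore do not show how reliable the calls in the real libraries are. Nothing says whether the 2 libraries of a group came from separate cultures, so p-values measure only the spread between them. Depth limits precision, and intervals cover the spread between libraries only. Sequences were read from GRCm38.p6 and RefSeq, with alignments by BLAST 2.17.0 and Biopython 1.88. Alternatives were other scalings, filters, a pseudocount of 8, no trend, a replicate block, leaving out each library, intervals within 10 kb of the start site, and, chosen after seeing the data, edgeR 4.0.16 on the recovered counts and each library's read shares times its factor.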

Additional observations from a re-analysis of the deposited data

How the results depend on the processing

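The acetate and SB204990 results depended on the spike-in scaling. Counted in the main direction, 49311 intervals and 17167 genes were called higher with acetate, but 0 and 8 with median-of-ratios scaling, 50 and 38 with total-sum scaling, and 0 and 0 with read shares times the factor. Requiring a mean of at least 50 left 23901 intervals, since fewer were tested. With SB204990 added to etomoxir, 12285 intervals and 8753 genes were called lower, but 0 and 0 under each of these 3 scalings, 0 and 1 without an intensity trend, and 2499 intervals without a filter. With etomoxir alone 58 genes were called higher, but 30 without a filter, 10 without a trend and 0 with shares times the factor. With SB204990 + etomoxir against no etomoxir 14 genes were called higher, but 110 with median-of-ratios, 190 with total-sum scaling, 2 without a trend and 0 with shares times the factor.

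For the members, all 6 acetate values stayed positive under the 3 other scalings, and the 5 given with a test lost their call. The value of SB204990 added to etomoxir turned positive, with median-of-ratios and total-sum scaling, at the Acot2 promoter (0.15 and 0.17), Acot2 intergenic (0.079 and 0.097), Acot2 downstream (0.34 and 0.35), Acot1 downstream (0.27 and 0.29), Acot1 (0.34 and 0.35) and Acot2 (0.22 and 0.23). With shares times the factor it was 0.049 at the Acot2 promoter, 0.23 at Acot2 downstream, 0.17 at Acot1 downstream, 0.23 for Acot1 and 0.11 for Acot2. The interaction turned negative at the Acot2 promoter (-0.056 and -0.069), Acot1 downstream (-0.14 and -0.15) and Acot1 (-0.23 and -0.24) with the first 2 scalings. The etomoxir value stayed positive, at 0.69 and 0.77 for the Acot2 promoter and 0.95 and 0.97 for the Acot2 sum. The cause was not tested.

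Leaving out a library in turn gave 37159 to 60210 intervals and 15788 to 19051 genes with acetate, 2 (without the etomoxir + acetate library of set 1) to 42923 intervals (without the SB204990 + etomoxir library of set 2) and 0 (without any 1 of the 4 etomoxir and etomoxir + acetate libraries or the SB204990 + etomoxir + acetate library of set 1) to 16558 genes (without the SB204990 + etomoxir library of set 2) with SB204990 added to etomoxir, and 0 to 1 intervals and 0 to 3 genes for the interaction. It gave 22 (without the acetate library of set 1) to 6389 genes (without the SB204990 + etomoxir library of set 2) with etomoxir alone, and 5 (without the SB204990 + etomoxir + acetate library of set 2) to 837 (without the SB204990 + etomoxir library of set 1) with SB204990 + etomoxir against no etomoxir. The value of SB204990 added to etomoxir ranged from -0.66 to 0.11 at Acot2 intergenic, -0.10 to 0.022 at Acot2 downstream, -0.23 to 0.027 at Acot1 downstream and -0.18 to 0.10 for Acot1. The interaction ranged from -0.021 to 0.35 at the Acot2 promoter, -0.020 to 1.67 at Acot2 intergenic, -0.37 to 0.56 at Acot1 downstream and -0.41 to 0.41 for Acot1. The etomoxir with SB204990 description ranged from 0.15 to 0.99 at Acot2 intergenic and from 0.985 to 1.45 at Acot1 downstream. A lone library left in a group is assumed to vary like the others.

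Libraries of 1 set share a suffix and a library with a factor of 1, but no source says that it marks a shared culture, batch or day, and they did not deviate together throughout. Over 15 pairs of groups the correlation of their deviations was -0.149 to 0.354, above 0.1 in 3. With the set as a replicate block 260 genes were called with etomoxir alone, 27 with SB204990 + etomoxir against no etomoxir, 51882 intervals and 17578 genes with acetate, 16608 and 11273 with SB204990 added to etomoxir, and 0 for the interaction, and no member call changed.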

Other observations

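The Acot2 to Acot1 ratio of gene sums had a median of 5.45 over the 12 libraries. It was lowest, at 3.93, in the set 2 library of SB204990 + etomoxir, the library that stood apart, and highest, at 7.07, in the vehicle library of set 1.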
